A study of Mus musculus with 9 samples.

Results

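Imprinted genes are expressed mainly from the copy inherited from a single parent. For this account 44 imprinted mouse genes were listed by name, by the chromosomal domain they lie in and by the parental allele they are known to be expressed from. Every probeset (a set of short probes read as 1 value) whose only gene symbol was a listed gene was taken, which gave 104 probesets for 40 genes out of 45037 probesets and 18193 genes tested. Rtl1, Dio3, H19 and Zrsr1 had no such probeset. Where a gene had several, the one with the highest average of all 9 arrays stands for the gene, and the others are given beside it or counted.

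The study asked which genes change in cells with persistently active STAT3, a transcription factor downstream of cytokine and growth factor receptors. The samples were 3 kinds of Balb/c-3T3 cells, an immortalized line of mouse embryo fibroblasts, with 3 arrays each. The v-Src cells were stably transfected with pMvSrc, which carries the viral Src tyrosine kinase, an activator of STAT3 and of other pathways. The STAT3-C cells were stably transfected with pRc/CMV-STAT3C, in which the cytomegalovirus promoter drives a constitutively active STAT3 mutant. The control cells were unmodified, and all 3 lines had the same medium, DMEM with bovine calf serum. Each array held RNA of dishes pooled at 1 of 3 passages, and the arrays are numbered 1, 5 and 6 for v-Src and 1, 2 and 3 for STAT3-C and control. Each kind of cell was 1 line. On these arrays a difference from control therefore cannot be told apart from one between lines that arose during selection or growth. The p-values cover only how passages of a line vary.

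Imprinted genes lie in clusters, each under an imprinting control region that carries DNA methylation on only 1 parental copy. In several clusters the unmethylated copy makes a long noncoding RNA, such as Airn or Kcnq1ot1, that silences neighbouring genes on the same chromosome. Many paternally expressed members promote growth in the embryo and many maternally expressed members restrain it, although exceptions exist, and in mouse tissues most members are more active before than after birth. The arrays measured total RNA and did not separate the parental copies.

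Promoter sequences are shown for 5 members, chosen after their values were seen, that differed strongly from control or carry a letter pattern described after them. They were copied from RefSeq (assembly GRCm38.p6), each window holding 250 bases before and 50 bases after an annotated start, 5′ to 3′ on the gene's strand, with every CpG in capitals, since CpG is the site of DNA methylation. Grb10 has 2 annotated starts and both are shown. They are numbered by position on the chromosome, so on the minus strand the second start lies upstream of the first. Dlk1 and Igf2 also differed strongly from control and have such windows, which are not shown.
Ndn, chr7:62348027-62348326, plus strand: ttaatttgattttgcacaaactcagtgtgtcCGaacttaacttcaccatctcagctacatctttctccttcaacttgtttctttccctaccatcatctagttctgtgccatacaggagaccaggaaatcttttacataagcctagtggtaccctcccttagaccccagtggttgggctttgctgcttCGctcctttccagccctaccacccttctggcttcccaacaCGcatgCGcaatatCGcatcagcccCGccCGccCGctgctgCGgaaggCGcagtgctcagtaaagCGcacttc
Peg12, chr7:62464461-62464760, minus strand: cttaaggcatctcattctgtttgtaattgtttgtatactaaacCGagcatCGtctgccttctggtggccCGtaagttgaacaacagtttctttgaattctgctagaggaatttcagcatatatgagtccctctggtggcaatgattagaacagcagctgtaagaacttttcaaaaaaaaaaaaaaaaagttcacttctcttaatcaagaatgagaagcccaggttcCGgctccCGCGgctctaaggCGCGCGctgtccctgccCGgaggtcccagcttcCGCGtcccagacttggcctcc
Peg3, chr7:6730370-6730669, minus strand: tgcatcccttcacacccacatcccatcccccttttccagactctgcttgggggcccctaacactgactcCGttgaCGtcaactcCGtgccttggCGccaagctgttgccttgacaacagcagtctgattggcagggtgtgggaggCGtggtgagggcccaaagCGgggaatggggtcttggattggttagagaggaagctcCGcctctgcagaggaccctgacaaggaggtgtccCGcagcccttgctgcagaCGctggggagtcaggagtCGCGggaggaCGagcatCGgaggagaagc
Plagl1, chr10:13090582-13090881, plus strand: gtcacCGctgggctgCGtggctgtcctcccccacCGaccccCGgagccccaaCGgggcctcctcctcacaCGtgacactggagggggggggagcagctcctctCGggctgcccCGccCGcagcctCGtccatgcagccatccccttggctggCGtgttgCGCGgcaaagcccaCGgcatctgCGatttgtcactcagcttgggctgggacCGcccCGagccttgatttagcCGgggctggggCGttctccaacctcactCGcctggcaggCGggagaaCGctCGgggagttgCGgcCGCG
Grb10, first start, chr11:12027922-12028221, minus strand: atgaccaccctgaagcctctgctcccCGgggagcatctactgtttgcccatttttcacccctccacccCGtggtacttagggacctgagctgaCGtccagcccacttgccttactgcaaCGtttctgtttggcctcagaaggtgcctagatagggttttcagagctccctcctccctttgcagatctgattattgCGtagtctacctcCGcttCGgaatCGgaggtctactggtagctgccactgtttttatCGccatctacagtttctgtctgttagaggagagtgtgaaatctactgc
Grb10, second start, chr11:12037371-12037670, minus strand: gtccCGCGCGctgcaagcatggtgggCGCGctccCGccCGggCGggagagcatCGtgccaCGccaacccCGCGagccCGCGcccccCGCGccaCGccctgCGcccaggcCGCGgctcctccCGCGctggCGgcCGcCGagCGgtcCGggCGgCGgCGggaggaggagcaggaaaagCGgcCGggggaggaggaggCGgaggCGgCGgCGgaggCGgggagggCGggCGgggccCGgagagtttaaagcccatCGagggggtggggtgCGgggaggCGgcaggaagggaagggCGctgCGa
The windows hold 11 CpG for Ndn, 12 for Peg12, 13 for Peg3 and 26 for Plagl1, and the Grb10 windows hold 9 and 45. Over the 52 windows found for 35 of the 44 listed genes, the median was 16.5 CpG, against 7 over all 32851 windows in the table. The window of Peg3 shares 263 bases with that of Usp29, which is transcribed the other way from the same stretch, and of this pair only Peg3 differed from control.

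Letter patterns were counted on both strands. TTCNNNGAA, a core to which STAT proteins bind, reads the same on both strands and was found in 1 of the 52 windows (1.92%), against 8.30% of all windows. That window is Peg12, where TTCTTTGAA begins 163 bases before the start. The looser patterns TTNNNNAA, TTNNNNNAA and TTNNNNNNAA, the middle one of which also covers TTCNNNGAA, were found in 44 of 52 windows (84.6%) and in 78.8% of all windows. TGCCGC, the core bound by ZFP57, a zinc finger protein that protects methylation at imprinting control regions, was found in 13 of 52 windows (25%) and in 11.6% of all windows. The 52 windows were richer in G and C (median 58.8%, against 52.7% over all windows), and some of them overlap, as for Mest. What this adds to the counts was not tested. These counts describe the letters in the windows and do not measure binding. The study itself reported STAT3 binding to the Ndn promoter in v-Src cells, by gel shift and chromatin immunoprecipitation. It placed that site further upstream than the Ndn window shown here reaches.

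The 9 arrays had medians between 6.27 and 6.39 and lower quartiles between 5.07 and 5.16 on the log2 scale, and arrays of the same line correlated at r of 0.990 to 0.995 over all probesets. Levels are given as log2 values after RMA (robust multichip average), and levels under the lower quartile of an array were taken as close to background. The main Stat3 probeset, 1426587_a_at, was 1.53 log2 higher in v-Src cells and 0.24 higher in STAT3-C cells, where it did not pass, while 1460700_at rose in both lines, by 1.30 in v-Src and 0.72 in STAT3-C. Neither Src probeset was higher in v-Src cells (-0.11 and -0.25). Where the probes lie relative to the transfected sequences was not checked. Fibroblast marker genes averaged 9.52 to 9.85 on the v-Src arrays, 9.85 to 9.94 on the STAT3-C arrays and 11.08 to 11.28 on the control arrays, so the transfected lines and the control cells did not overlap. Of 10 such markers 5 were lower in each line, with Thy1 at -5.17 in v-Src and -5.18 in STAT3-C cells. Pdgfrb (-5.06 and -1.93), Lum (-3.2 and -3.5) and Col1a1 (-1.34 and -1.86) also fell in both lines, and Col3a1 fell in v-Src cells (-1.63). S100a4 was higher in both lines (0.65 and 0.89) and Fn1 in v-Src cells (1.13). Col1a2, a collagen chain, averaged 13.01 in v-Src, 12.72 in STAT3-C and 13.33 in control cells, far above background in each. It passed as lower in STAT3-C cells (-0.61). The part of these markers in the results that follow was not tested. The neuronal (8 genes), trophoblast (6), epithelial (6), and endothelial and leukocyte (7) markers averaged between 5.26 and 6.55 on every array. In STAT3-C cells the neuronal average (5.45 to 5.57, against 5.30 to 5.33 in control) and the endothelial and leukocyte average (5.63 to 5.76, against 5.26 to 5.53) did not overlap with control, with Gap43 (0.72) and Cd68 (1.14) passing as higher. The neuronal average of v-Src cells (5.34 to 5.47) also lay above control, by a narrow margin. Their epithelial average did so too, at 6.408 on the lowest v-Src array against 6.405 on the highest control array. No marker of these lists passed in v-Src cells. Of the epithelial markers Epcam stood above the others, at 9.71 in v-Src, 9.05 in STAT3-C and 9.37 in control cells, and did not pass in either line.

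Of the 40 imprinted genes, 15 differed from control in at least 1 line (37.5%, against 28.9% of all genes), and the genes that were lower in both lines were largely paternally expressed ones. A gene passed where limma gave an adjusted p below 0.05 and a fold change of at least 1.5. In v-Src cells 3 of the 40 genes rose (7.5%) and 9 fell (22.5%), against 9.54% and 10.4% of all genes. In STAT3-C cells 5 rose (12.5%) and 10 fell (25%), against 11.9% and 10.3%. Both comparisons used the same control arrays. Values after ± are standard errors from limma, with 3 arrays per line. In these bulk samples less RNA per cell cannot be told apart from fewer cells that express a gene.

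The genes lower in both lines were Ndn, Peg12, Peg3, Dlk1, Igf2, Plagl1, Copg2, Sgce and Impact, 9 of 40 (22.5%), against 6.74% of all genes. Those higher in both lines were Kcnq1ot1, Grb10 and Airn, 3 of 40 (7.5%), against 6.33%. By probeset, 10 of 104 rose and 16 fell in v-Src cells (8.75% and 8.1% of all probesets), and 11 rose and 18 fell in STAT3-C cells (9.68% and 8.58%). In at least 1 line 32 of 104 passed (30.8%), against 24.4% of all probesets. In both lines alike 7 probesets rose and 16 fell, against 5.17% and 5.37% of all probesets. The median log2 fold change over the 40 genes was -0.10 in v-Src and -0.12 in STAT3-C cells, against 0.02 and 0.04 over all genes.

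**Figure D1:**
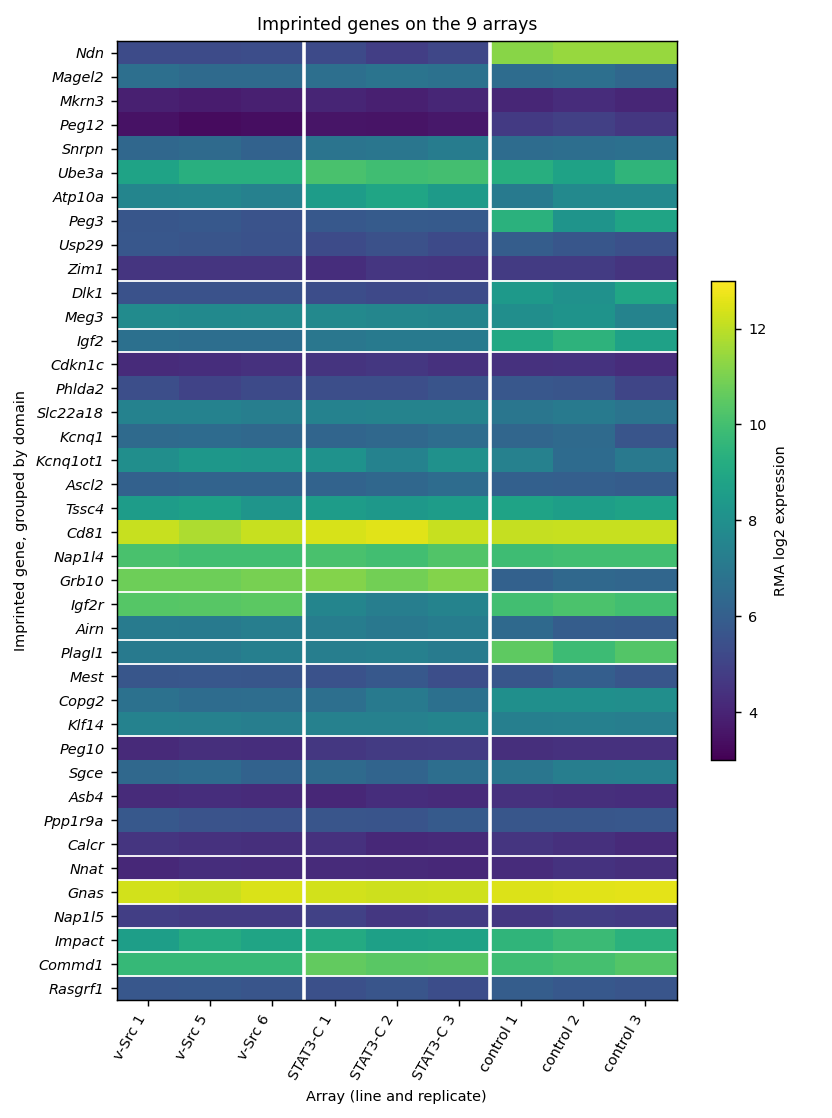
RMA log2 expression (colour, from dark for low to yellow for high) of the probeset that stands for each of 40 imprinted genes (rows, grouped by domain with white lines between domains) on the 3 v-Src, 3 STAT3-C and 3 control arrays (columns). Ndn, Peg3, Dlk1, Igf2 and Plagl1 are darker on the transfected arrays than on the control arrays, and Grb10 is brighter.

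Split by allele, 8 of the 19 paternally expressed genes with a probeset were lower in both lines (42.1%, against 6.74% of all genes). Higher in both lines were 2 (10.5%, against 6.33% of all genes). The medians of these 19 genes were -0.28 in v-Src and -0.32 in STAT3-C cells. Without Ndn, 7 of 18 were lower (38.9%), with medians of -0.20 and -0.27. Of the 19 maternally expressed genes, Copg2 was lower and Grb10 higher in both lines, 5.26% each way and near the shares of all genes. In STAT3-C cells alone Igf2r passed as lower and Ube3a as higher. Their medians were -0.07 in v-Src and 0.10 in STAT3-C cells. H19, also maternally expressed, is in none of these counts. The probeset it shares with Mir675 changed by -4.52 in v-Src and -4.18 in STAT3-C cells. The paternally expressed genes higher in both lines, Kcnq1ot1 and Airn, are noncoding RNAs that run antisense to Kcnq1 and Igf2r. The groups are small and were not compared by a test, and several maternal members are imprinted only in placenta or brain. The average of the fibroblast markers was lower on the same transfected arrays, although single markers went both ways, and their part in these counts was not tested.

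**Figure D2:**
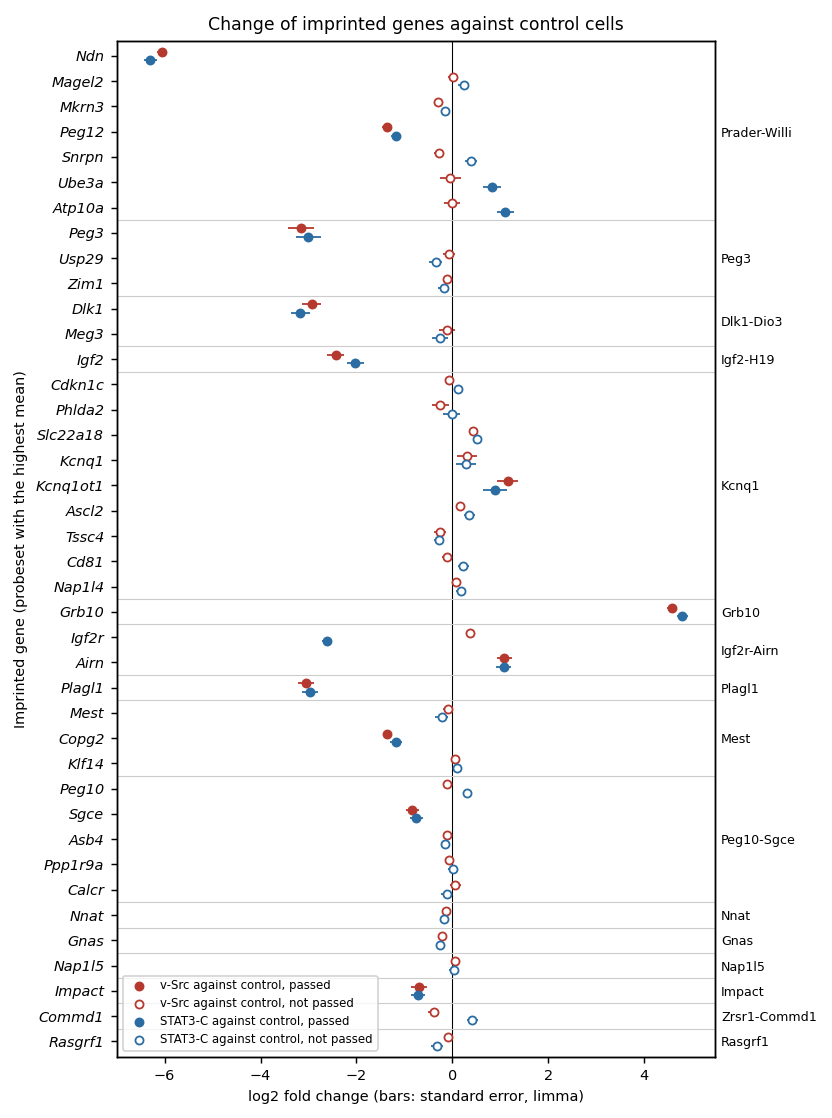
log2 fold change (x axis, log2 units, bars show the standard error from limma) of 40 imprinted genes (y axis, grouped by domain) in v-Src (red) and STAT3-C (blue) cells against control cells, 3 arrays per line. Filled points passed and open points did not. Ndn lies furthest to the left at -6.06 and -6.30 and Grb10 furthest to the right at 4.58 and 4.79.

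The Prader-Willi domain on chromosome 7 holds Ndn, Magel2, Mkrn3, Peg12 and Snrpn, which are paternally expressed, and Ube3a and Atp10a at its other end. Ndn and Peg12 fell in both lines while Magel2 and Mkrn3, which lie between them, did not pass. Ndn encodes necdin, a growth suppressor of the MAGE family. Its main probeset read 5.29, 5.28 and 5.38 on the v-Src arrays, 5.25, 4.85 and 5.12 on the STAT3-C arrays, and 11.21, 11.45 and 11.46 on the control arrays. The transfected arrays were thus near the lower quartile of the array and the control arrays far above it. The log2 fold change was -6.06 ± 0.09 in v-Src cells (limma adjusted p = 2.0e-07) and -6.30 ± 0.13 in STAT3-C cells (adjusted p = 9.5e-08). For Ndn the study also reported PCR of the same RNA and protein blots, some after STAT3 knockdown, which are not covered here.

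Of the 8 Ndn probesets, 5 fell in both lines. Beside the main one, 3 fell by 5.68 to 6.87, where all transfected arrays were below the lower quartile and the sizes are lower bounds, and 1437853_x_at changed by -2.85 in v-Src and -3.03 in STAT3-C cells. The remaining 3 were at 3.97 to 5.23 on every array, and among them 1456575_at was higher in v-Src cells by 0.65, a call lost without v-Src replicate 1 (0.57) and after centring each array on its median (0.58). Thus 5 probesets of this gene moved together and 3 carried little signal in any line.

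Peg12, an intronless gene related to the FRAT regulators of Wnt signalling, read 3.47, 3.29 and 3.37 on the v-Src arrays, 3.55, 3.52 and 3.64 on the STAT3-C arrays, and 4.70, 4.89 and 4.64 on the control arrays. The groups did not overlap, but all 9 values lay below the lower quartile of their arrays. The log2 fold change was -1.36 ± 0.10 in v-Src and -1.17 ± 0.10 in STAT3-C cells. Magel2, a MAGE family gene, averaged 6.53 in v-Src, 6.75 in STAT3-C and 6.51 in control cells. Mkrn3, a makorin ring finger gene, averaged 3.85, 3.99 and 4.14 in the same order, below the lower quartile on all arrays.

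At the other end of the domain the lines differed from each other. Ube3a, a ubiquitin ligase imprinted in neurons, read 8.79, 9.31 and 9.31 on the v-Src arrays, 10.11, 9.92 and 10.02 on the STAT3-C arrays, and 9.26, 8.75 and 9.53 on the control arrays. Only the STAT3-C arrays stood apart, and the v-Src and control arrays overlapped. The log2 fold change was -0.04 ± 0.22 in v-Src cells and 0.83 ± 0.18 in STAT3-C cells (limma adjusted p = 0.010), and the direct difference, v-Src minus STAT3-C, was -0.88 ± 0.15 (adjusted p = 0.0071). The STAT3-C call was lost without STAT3-C replicate 1 (0.79), and none of the other 5 Ube3a probesets passed.

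Atp10a, a phospholipid flippase whose imprinting in mouse is disputed, read 7.57, 7.60 and 7.38 on the v-Src arrays, 8.55, 8.88 and 8.46 on the STAT3-C arrays, and 7.14, 7.72 and 7.72 on the control arrays. It rose by 1.11 ± 0.18 in STAT3-C cells and differed by -0.01 ± 0.17 in v-Src cells, with a direct difference of -1.11 ± 0.13. The probesets of this gene disagreed, since 1447272_s_at was 0.59 higher on the v-Src arrays when set against those of STAT3-C. Leaving out any array but v-Src replicate 1 ended that opposite call, at differences of 0.49 to 0.62.

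Snrpn, which encodes a spliceosome protein, was read alone by 1432096_at, with 6.33, 6.48 and 6.14 on the v-Src arrays, 6.83, 6.93 and 7.21 on the STAT3-C arrays, and 6.52, 6.60 and 6.68 on the control arrays. The control arrays lay between the lines, and neither line passed against control. The direct difference was -0.67 ± 0.13 (limma adjusted p = 0.011), or -0.56 without STAT3-C replicate 3, when it no longer passed. A further 6 probesets carry the symbols of both Snurf and Snrpn and were not counted. Among these, 1415895_at averaged 11.18 in v-Src, 10.86 in STAT3-C and 10.66 in control cells, and 1421063_s_at changed by -2.63 in v-Src and -2.26 in STAT3-C cells. In the direct comparison 1415895_at went the opposite way to 1432096_at, at 0.31, and 1421063_s_at the same way, at -0.37. None of the 6 passed there.

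Snhg14, the host transcript of the small nucleolar RNAs of this domain, was the only unlisted gene inside the domain or among its 8 nearest neighbours to pass. It passed as lower in both lines, but its averages of 3.38 in v-Src, 3.28 in STAT3-C and 4.43 in control cells were all below the lower quartile.

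**Figure D3:**
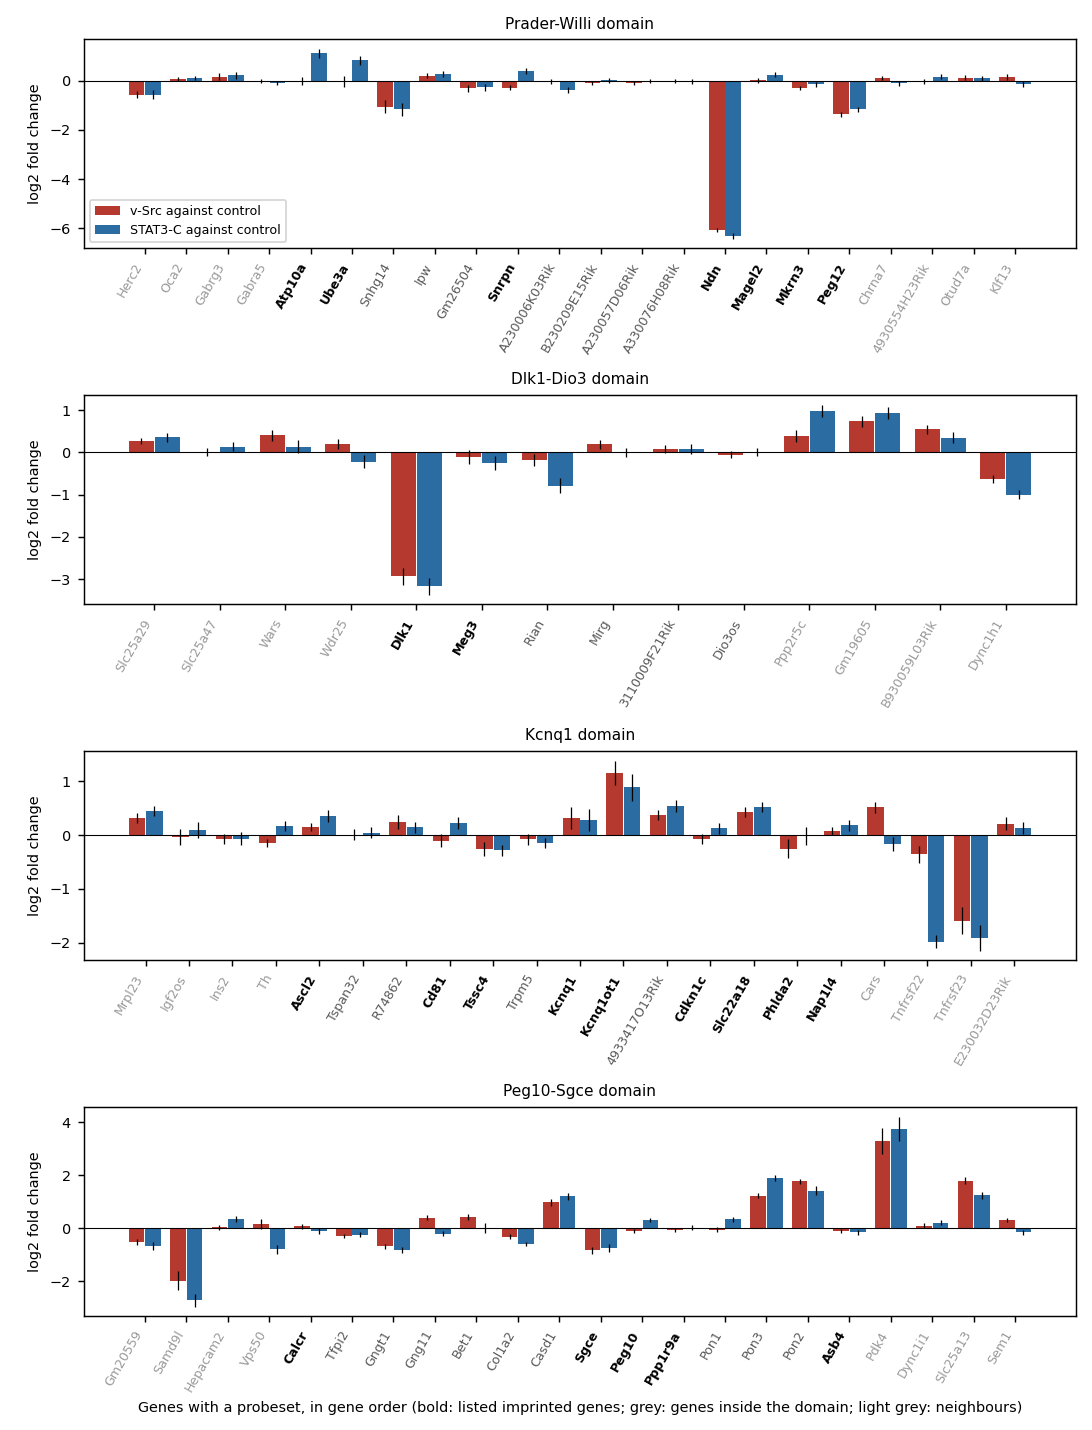
log2 fold change (y axis, log2 units, bars show the standard error from limma) in v-Src (red) and STAT3-C (blue) cells against control cells for genes with a probeset, in gene order along 4 imprinted domains (x axis, bold for the listed genes, grey for other genes inside the domain, light grey for 4 neighbours on each side). In the Prader-Willi domain Ndn at -6.06 and -6.30 stands beside Magel2 at 0.02 and 0.24, and in the Dlk1-Dio3 domain Dlk1 at -2.94 and -3.17 stands beside Meg3 at -0.10 and -0.26.

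In the Peg3 domain, also on chromosome 7, only Peg3 fell. Peg3 encodes a zinc finger protein expressed from the paternal copy. Its main probeset read 5.68, 5.75 and 5.55 on the v-Src arrays, 5.74, 5.89 and 5.82 on the STAT3-C arrays, and 9.39, 8.19 and 8.86 on the control arrays. The 6 transfected arrays were close to each other, and the control arrays spread more widely. On the log2 scale the change was -3.15 ± 0.27 in v-Src cells (limma adjusted p = 0.00023) and -3.00 ± 0.26 in STAT3-C cells (adjusted p = 1.0e-04).

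A further 2 Peg3 probesets fell, with 1433924_at at -5.36 in v-Src and -5.26 in STAT3-C cells, from transfected arrays below the lower quartile, and 1417356_at at -2.91 and -2.90, while the last 2 were at 3.34 to 3.99 on every array. Usp29, a ubiquitin protease gene read from the other strand of the shared promoter, averaged 5.62 in v-Src, 5.34 in STAT3-C and 5.69 in control cells. Zim1, a maternally expressed zinc finger gene, averaged 4.55, 4.48 and 4.66 in that order. Neither passed in either line.

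In the Dlk1-Dio3 domain on chromosome 12 the paternally expressed gene Dlk1 fell by its main probeset, and the maternally expressed Meg3 did not pass. Dlk1, a transmembrane protein of the Notch ligand type that holds back fat cell differentiation, read 5.51, 5.54 and 5.51 on the v-Src arrays, 5.35, 5.20 and 5.28 on the STAT3-C arrays, and 8.39, 8.06 and 8.92 on the control arrays. All transfected arrays lay near the lower quartile and far below the lowest control array. Against control the log2 fold change was -2.94 ± 0.20 in v-Src cells (limma adjusted p = 8.7e-05) and -3.17 ± 0.20 in STAT3-C cells (adjusted p = 2.1e-05). The second Dlk1 probeset, 1442724_at, was above the lower quartile on all arrays but differed by only -0.27 in v-Src and -0.15 in STAT3-C cells and did not pass, so the probesets of this gene disagreed.

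Meg3, a long noncoding RNA, had 11 probesets, the most of any member, and none passed in any comparison. The main one averaged 7.75 in v-Src, 7.59 in STAT3-C and 7.85 in control cells, with 95% intervals of the difference from -0.49 to 0.29 and from -0.65 to 0.13. Over the 11 probesets the log2 fold change ranged from -0.18 to 0.40 in v-Src and from -0.26 to 0.49 in STAT3-C cells. Rian, an unlisted noncoding RNA further along the same strand, fell by 0.79 in STAT3-C cells.

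In the Igf2-H19 domain on chromosome 7, Igf2 fell in both lines. Igf2, the paternally expressed insulin-like growth factor 2, read 6.69, 6.63 and 6.61 on the v-Src arrays, 6.98, 7.07 and 7.09 on the STAT3-C arrays, and 9.05, 9.47 and 8.70 on the control arrays. The 3 groups did not overlap, and the v-Src arrays were lowest. In log2 terms the change was -2.43 ± 0.18 in v-Src and -2.03 ± 0.18 in STAT3-C cells. The direct difference was -0.40 ± 0.07, under the required fold (limma adjusted p = 0.0091). The second Igf2 probeset, 1415931_at, lay between 4.86 and 5.41 on all arrays, differed by 0.10 in v-Src and -0.06 in STAT3-C cells and did not pass.

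H19, a maternally expressed noncoding RNA of the same domain, had no probeset of its own. A single probeset carries the symbols of both Mir675 and H19, and Mir675 is a microRNA made from the H19 transcript. It read 5.05, 5.04 and 5.16 on the v-Src arrays, 5.39, 5.45 and 5.43 on the STAT3-C arrays, and 9.13, 9.78 and 9.90 on the control arrays. These values fell by 4.52 in v-Src and by 4.18 in STAT3-C cells, and they are in no count of members.

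In the Kcnq1 domain on chromosome 7 the noncoding RNA rose, and none of the 8 other measured members passed. Kcnq1ot1, made from the paternal copy, read 7.94, 8.28 and 8.22 on the v-Src arrays, 8.09, 7.45 and 8.07 on the STAT3-C arrays, and 7.41, 6.51 and 7.04 on the control arrays. The transfected arrays were all above the control arrays, the lowest STAT3-C array only slightly so. Relative to control the log2 fold change was 1.16 ± 0.22 in v-Src cells (limma adjusted p = 0.0074) and 0.88 ± 0.25 in STAT3-C cells (adjusted p = 0.031). The STAT3-C call was lost on leaving out control replicate 2 (0.64), control replicate 3 (0.91), STAT3-C replicate 1 (0.77) or STAT3-C replicate 3 (0.78).

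Of its 6 probesets, 5 were higher in v-Src and 3 in STAT3-C cells, and each STAT3-C call was lost on leaving out some single arrays (0.53 to 0.91). The v-Src call of 1459443_at (0.62) was lost without v-Src replicate 5 (0.54), v-Src replicate 6 (0.63) or control replicate 3 (0.45), after median centring (0.55) and after quantile normalization (0.58). Among the probesets higher in both lines, 1441588_at read 6.58, 6.94 and 6.96 on the v-Src arrays, 5.90, 5.22 and 6.26 on the STAT3-C arrays, and 5.07, 4.95 and 5.06 on the control arrays. The v-Src arrays were highest and the control arrays lowest, with no overlap. Set directly against STAT3-C, v-Src cells were 1.03 ± 0.25 higher for this probeset and 0.82 ± 0.12 higher for 1458161_at. Both passed, but 1441588_at did not on leaving out any v-Src array or STAT3-C replicate 1 (0.97 to 1.16). The main probeset differed by 0.28 ± 0.19 between the lines and did not pass.

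Of the maternally expressed members, the cyclin-dependent kinase inhibitor Cdkn1c averaged 4.32 in v-Src, 4.51 in STAT3-C and 4.39 in control cells, below the lower quartile on all arrays. Slc22a18, an organic cation transporter, came nearest to passing, with 7.38 in v-Src, 7.47 in STAT3-C and 6.95 in control cells, a difference of 0.43 ± 0.09 and 0.52 ± 0.09. Phlda2, which limits placental growth, and Kcnq1, the potassium channel gene that Kcnq1ot1 runs through, averaged 5.23 and 6.44 in v-Src, 5.46 and 6.41 in STAT3-C, and 5.48 and 6.13 in control cells.

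The members imprinted in placenta, the transcription factor Ascl2, Tssc4, the tetraspanin Cd81 and the histone chaperone Nap1l4, had log2 fold changes between -0.28 and 0.35 in both lines and did not pass.

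Grb10 showed the greatest rise among the members. It encodes an adaptor that restrains insulin and insulin-like growth factor receptor signalling, and is maternally expressed in most tissues and paternally in neurons. The main probeset read 10.78, 10.81 and 10.95 on the v-Src arrays, 11.13, 10.89 and 11.15 on the STAT3-C arrays, and 6.11, 6.39 and 6.29 on the control arrays. Every transfected array was far above every control array, and the lines overlapped each other. On the log2 scale the change was 4.58 ± 0.10 in v-Src cells (limma adjusted p = 7.1e-07) and 4.79 ± 0.12 in STAT3-C cells (adjusted p = 1.8e-07).

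The other two Grb10 probesets rose as well, 1425457_a_at by 1.25 in v-Src and 1.24 in STAT3-C cells and 1430164_a_at by 0.66 and 0.98. Without v-Src replicate 6 the v-Src call for 1430164_a_at was lost (0.58). The arrays do not tell which of the starts shown above, with 9 and 45 CpG, gave the RNA.

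In the Igf2r-Airn domain on chromosome 17 the lines shared the rise of Airn but not the change of Igf2r. Airn, a paternally expressed noncoding RNA antisense to Igf2r, read 7.16, 7.06 and 7.26 on the v-Src arrays, 7.25, 7.01 and 7.18 on the STAT3-C arrays, and 6.41, 5.96 and 5.86 on the control arrays. The transfected lines overlapped each other and lay above control. Against control the log2 fold change was 1.09 ± 0.15 in v-Src and 1.07 ± 0.15 in STAT3-C cells. Of the other 4 Airn probesets, only 1436627_at passed, in STAT3-C cells (1.05), and not without control replicate 3 (0.95).

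Igf2r, the receptor that takes up and degrades insulin-like growth factor 2, read 10.38, 10.42 and 10.48 on the v-Src arrays, 7.56, 7.28 and 7.46 on the STAT3-C arrays, and 9.98, 10.19 and 9.98 on the control arrays. Only the STAT3-C arrays were low. In log2 terms the change was 0.38 ± 0.09 in v-Src cells, under the required fold, and -2.61 ± 0.11 in STAT3-C cells (limma adjusted p = 3.2e-06). The direct difference, v-Src minus STAT3-C, was 2.99 ± 0.09 (adjusted p = 2.0e-05), and the second Igf2r probeset gave 2.07 ± 0.11. The probeset with the symbols of both Airn and Igf2r, which was not counted, lay between 5.16 and 5.49 on all arrays.

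Direct comparison of v-Src with STAT3-C cells gave Igf2r as the 1 member gene higher in v-Src, against 4.84% of all genes, and Ube3a, Atp10a, Snrpn and Commd1 as the 4 lower, against 6.83%. By probeset 5 were higher and 5 lower, against 4.99% and 5.33% of all probesets, and each list of 5 included a probeset of Atp10a. None of the 12 genes that passed in the same direction in both lines passed in the direct comparison by its main probeset.

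**Figure D4:**
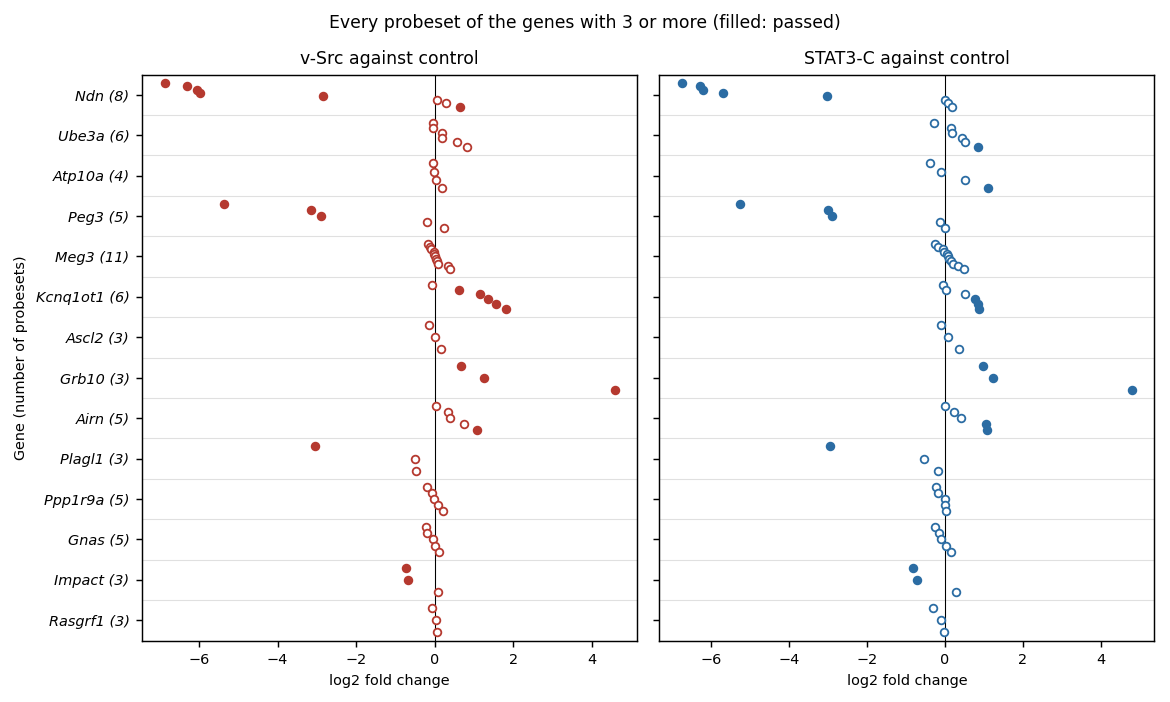
log2 fold change (x axis, log2 units) of every probeset of the imprinted genes that have 3 or more (y axis, number of probesets in brackets) in v-Src cells (left, red) and STAT3-C cells (right, blue) against control cells. Filled points passed and open points did not. All 3 Grb10 probesets are filled on both sides, 5 of 8 for Ndn and 3 of 5 for Peg3 are filled to the left of 0, and none of the 11 for Meg3 is filled.

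At the Plagl1 locus on chromosome 10, Plagl1, a paternally expressed zinc finger transcription factor that can arrest the cell cycle, fell in both lines. Its main probeset read 7.10, 7.14 and 7.32 on the v-Src arrays, 7.30, 7.36 and 7.15 on the STAT3-C arrays, and 10.52, 9.87 and 10.31 on the control arrays. The transfected lines overlapped each other and lay well below control. Relative to control the log2 fold change was -3.05 ± 0.17 in v-Src and -2.96 ± 0.16 in STAT3-C cells. The other two probesets differed by -0.50 and -0.47 in v-Src and by -0.17 and -0.53 in STAT3-C cells and did not pass.

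In the Mest domain on chromosome 6, Copg2, a coat protein subunit of Golgi vesicles with maternal expression in some mouse tissues, read 6.73, 6.53 and 6.57 on the v-Src arrays, 6.64, 7.07 and 6.68 on the STAT3-C arrays, and 7.97, 7.99 and 7.94 on the control arrays. The control arrays were almost equal and all above the others. On the log2 scale the change was -1.36 ± 0.08 in v-Src and -1.17 ± 0.13 in STAT3-C cells. Mest, the paternally expressed hydrolase gene that names the domain, averaged 5.70 in v-Src, 5.56 in STAT3-C and 5.78 in control cells and did not pass, nor did the transcription factor gene Klf14, at 7.37, 7.42 and 7.32.

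In the Peg10-Sgce domain, also on chromosome 6, only Sgce among the 5 measured members passed. Sgce, epsilon-sarcoglycan, read 6.39, 6.51 and 6.13 on the v-Src arrays, 6.44, 6.23 and 6.63 on the STAT3-C arrays, and 6.94, 7.27 and 7.33 on the control arrays. All transfected arrays were below the control arrays, by a smaller margin than for the members above. Against control the log2 fold change was -0.84 ± 0.14 in v-Src and -0.75 ± 0.14 in STAT3-C cells. The second Sgce probeset, 1443518_at, was below the lower quartile on all arrays, differed by 0.17 and 0.10 and did not pass. Peg10, a gene derived from a retrotransposon and paired head to head with Sgce, averaged 4.29 in v-Src, 4.71 in STAT3-C and 4.40 in control cells, and Asb4, Ppp1r9a and Calcr had log2 fold changes between -0.15 and 0.07 in both lines.

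Genes in and beside this domain that are not members also changed in both lines. Pdk4, a kinase that shuts down pyruvate dehydrogenase, rose by 3.29 in v-Src and 3.74 in STAT3-C cells, with a control average of 4.81, below the lower quartile. Inside the domain the paraoxonase gene Pon3 rose by 1.23 and 1.89, Pon2 by 1.76 and 1.40, and Casd1 by 0.98 and 1.20, while Gngt1 changed by -0.68 and -0.82.

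Among the single loci, Impact fell modestly in both lines. Impact, a paternally expressed inhibitor of the GCN2 stress kinase, read 8.62, 9.16 and 8.85 on the v-Src arrays, 9.13, 8.69 and 8.76 on the STAT3-C arrays, and 9.53, 9.80 and 9.38 on the control arrays. The control arrays were above all the others. In log2 terms the change was -0.69 ± 0.16 in v-Src cells (limma adjusted p = 0.017) and -0.71 ± 0.15 in STAT3-C cells (adjusted p = 0.0087). In v-Src cells the call was lost without v-Src replicate 1 (-0.57), v-Src replicate 6 (-0.68), control replicate 1 (-0.71) or control replicate 2 (-0.58). Of the other Impact probesets, 1446750_at fell by 0.73 in v-Src and by 0.82 in STAT3-C cells, and 1446751_s_at did not pass.

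Commd1, a regulator of NF-kappaB and copper handling with maternal bias in brain, read 9.69, 9.71 and 9.68 on the v-Src arrays, 10.58, 10.44 and 10.50 on the STAT3-C arrays, and 9.90, 10.05 and 10.31 on the control arrays. The control arrays lay between the lines, with no overlap. Neither difference from control reached the fold, at -0.39 ± 0.11 in v-Src and 0.42 ± 0.12 in STAT3-C cells, while the direct difference of -0.81 ± 0.07 passed (limma adjusted p = 0.00079). The second probeset, 1424121_at, differed by -1.32 ± 0.09 between the lines and was higher in STAT3-C cells than in control by 0.85.

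Gnas, which encodes the stimulatory G protein alpha subunit and several transcripts of either allele, averaged 12.32 in v-Src, 12.28 in STAT3-C and 12.53 in control cells, and none of its 5 probesets passed. Nnat, Nap1l5 and Rasgrf1, all paternally expressed and best known in brain, averaged 4.19 to 5.79 in every line and did not pass.

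Of the 40 genes, 25 passed against control in neither line, and for 16 of these the 95% interval of the change lay inside a 1.5-fold change in both directions and both lines. The interval reached a 1.5-fold change for Snrpn, Usp29, Meg3, Phlda2, Slc22a18, Kcnq1, Ascl2, Commd1 and Rasgrf1. Below the lower quartile on all 9 arrays were 9 of the 40 genes, Peg12 and 8 of the 25, and among these only Peg12 passed. All of these 8 are among the 16 with a narrow interval. So close to background, a narrow interval does not show that a gene was unchanged. No further probeset of Usp29, Slc22a18, Ascl2, Asb4, Ppp1r9a or Rasgrf1 passed in any comparison.

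Averaging all probesets of a gene in place of its highest one left Ndn, Peg12, Peg3, Dlk1, Igf2, Plagl1 and Copg2 lower and Grb10 higher in both lines. Airn, Sgce and Impact no longer passed in either line, and in STAT3-C cells Kcnq1ot1, Ube3a and Atp10a no longer passed and Commd1 did (0.63). The direct differences of Ube3a (-0.03, limma adjusted p = 0.88) and Atp10a (-0.24, adjusted p = 0.098) no longer passed either, while those of Igf2r (2.53), Commd1 (-1.06) and Snrpn (-0.67) did. Peg12, Copg2 and Snrpn have only 1 probeset each, so averaging could not change their values and is no check on them.

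Genes that flank the domains were compared as 4 on each side. They are not a set without imprinted genes. Zim2, Zim3, Ins2, Th, Tspan32, Tnfrsf23, Ddc, Slc22a2 and Blcap are also in the further list of imprinted genes below. Tnfrsf23 is thus counted in both. Of 124 such neighbours, 6 rose and 12 fell in both lines, against the 6.33% and 6.74% of all genes given above. None of the 8 neighbours of the Prader-Willi domain and none of the 8 around Igf2-H19 passed in either line. The neighbours that rose in both lines were Pdk4 and Slc25a13 beside Peg10-Sgce, Fuca2 beside Plagl1 (2.22 in v-Src and 2.20 in STAT3-C cells), Ctsz and Atp5e beside Gnas, and Gm19605 beyond Dlk1-Dio3.

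Those that fell in both lines included the zinc finger gene Zfp521 beside Impact (-5.02 in v-Src cells, where all arrays were below the lower quartile, and -3.59 in STAT3-C cells), the endoplasmic reticulum protein Vapb beside Gnas (-3.67 and -3.21), Samd9l beside Peg10-Sgce (-1.98 and -2.72) and Tnfrsf23 beside the Kcnq1 domain (-1.59 and -1.90). The others were Osbpl1a, Utrn, Stx11, Cep41, Ehbp1, Adamts7, Tbc1d2b and Dync1h1. Large changes beside a domain thus occurred where the imprinted member itself did not pass, as at Gnas, and large changes of a member occurred without any neighbour passing, as at Ndn and Igf2. H19, which lies in the domain of Igf2, is not among these neighbours. The probeset it shares with Mir675 fell in both lines (-4.52 in v-Src and -4.18 in STAT3-C cells).

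A further list held 32 imprinted genes outside the members, 25 of them with a probeset. Of the 25, 1 rose and 3 fell in both lines, against 6.33% and 6.74% of all genes, namely Dhcr7 higher (0.68 in v-Src, 0.82 in STAT3-C), and Sfmbt2 (-2.37 and -0.60), Tnfrsf23 and Osbpl5 (-0.81 and -0.85) lower. In v-Src cells alone Gab1 was also lower (-0.66). In STAT3-C cells alone Slc38a4, an amino acid transporter, was higher (1.03), and the proteoglycan decorin, Dcn, was lower (-2.24), as was Rian.

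Of 25 genes that set or maintain imprints, 23 had a probeset. In v-Src cells Setdb1, a histone methyltransferase, was higher (0.75), and the methylation maintenance factor Uhrf1 (-1.27), the Polycomb methyltransferase Ezh2 (-1.20) and the insulator protein Ctcf (-0.96) were lower. In STAT3-C cells the chromatin protein Smchd1 was higher (0.81) and 6 were lower, led by the DNA demethylating enzyme Tet2 (-1.36), Arid4b (-1.06), the histone methyltransferase Ehmt2 (-0.81) and Ezh2 (-0.70). Ezh2 was the only one of the 23 to pass in both lines. These are 1 higher and 3 lower of 23 in v-Src cells, against 9.54% and 10.4% of all genes, and 1 higher and 6 lower in STAT3-C cells, against 11.9% and 10.3%.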

How the data were processed

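Total RNA of 9 Balb/c-3T3 samples was hybridized by the authors to Affymetrix mouse GeneChip arrays of the whole genome, 1 array per sample. The values are log2 expression per probeset, deposited by the authors after RMA, the tool their processing notes name. The study's methods describe separate RMA runs for each transfected line, both with the control arrays. The deposited table holds the control arrays once, so how its columns were normalized together is not given in the sources used here, and differences between the lines rest on that. Depth is not defined for arrays, and the number of arrays limits the precision.

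Gene symbols came from the array annotation. Of 45101 probesets, 64 controls were left out, 34945 had 1 symbol, 932 several and 9160 none. Each comparison was fitted on its 6 arrays with limma 3.58.1 in R 4.3.3 (lmFit, eBayes). Benjamini-Hochberg adjustment ran over all 45037 probesets, and a probeset passed at an adjusted p below 0.05 and a fold of at least 1.5. Summaries used Python 3.11.15 and figures matplotlib 3.10.9. The fit was tested on simulated data. The members, domains, marker lists and factor lists were chosen with earlier results of these data known.

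Values on every array are given for members that passed in both lines or between the lines. They are also given for the probeset shared by H19 and for 1 further probeset of Kcnq1ot1, which were chosen after their values were seen. From other lists at most 4 genes, or all where 5 or fewer passed, were named, and neighbours where they passed in both lines. All fibroblast markers that passed were named. Gene order came from RefSeq (GRCm38.p6). Alternatives were SAM over all 20 groupings of 6 arrays (q below 5%), a fold of at least 2, a level filter, median centring, quantile normalization, all 9 arrays in 1 fit, a trended and robust prior, the mean of all probesets, the replicate number as a block and leaving out each array.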

Additional observations from a re-analysis of the deposited data

Results flagged for a closer look

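The members below are given because the direct difference between the transfected lines, v-Src minus STAT3-C, passed in limma. Igf2r had the largest, at 2.99 log2 units, with all v-Src arrays above all STAT3-C arrays. Atp10a differed by -1.11, Ube3a by -0.88, Commd1 by -0.81 and Snrpn by -0.67, and for each of these the 3 v-Src arrays lay below the 3 STAT3-C arrays. Another Atp10a probeset, 1447272_s_at, passed the opposite way at 0.59, and no other Ube3a probeset passed. The uncounted probesets shared by Snurf and Snrpn went both ways, at 0.31 for 1415895_at and -0.37 for 1421063_s_at, and none passed. With all probesets of a gene averaged, Ube3a (-0.03) and Atp10a (-0.24) no longer passed.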

How the results depend on the processing

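Over 174 results and 2365 alternative values, 2284 kept their side of the threshold, 72 no longer passed, 9 newly passed, and none that passed under either setting changed direction. Averaging all probesets of a gene accounts for 11 of the 72. Counts of members moved by more than 1.5 times as follows. With a fold of at least 2, STAT3-C cells had 5 probesets and 3 genes higher than control in place of 11 and 5. In the direct comparison, v-Src against STAT3-C, the same threshold left 3 probesets higher, 2 probesets lower and 1 gene lower in place of 5, 5 and 4. Limiting the test to probesets above the median level left 6 of 10 probesets higher in v-Src cells. When all probesets of a gene were averaged, 2 genes were higher in STAT3-C cells than in control and 2 were lower in the direct comparison. Leaving out 1 array at a time gave 7 to 11 probesets and 3 to 5 genes higher in STAT3-C cells, with the lowest counts without STAT3-C replicate 1. In the direct comparison it gave 3 to 5 probesets higher, with the lowest without v-Src replicate 5 or STAT3-C replicate 1.

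Same-numbered control and STAT3-C arrays deviated together by correlations of -0.09, 0.06 and 0.04, so no shared deviation by number was seen. These values cannot show whether same-numbered samples were prepared together. With the replicate block the STAT3-C comparison gave 11 probesets higher and 18 lower, and 5 genes higher and 10 lower, the same counts as without it. The v-Src arrays share only number 1 with the others. With 3 arrays per line and 1 line per transfection, changes of members near background are the least certain.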
